A study of Homo sapiens with 2 samples.

Results

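Genes of epithelial junctions, cell polarity and simple-epithelial keratins were read on the arrays of a UGT8 knockdown in MDA-MB-231, a hormone receptor-negative human breast cancer line with mesenchymal traits. The list held 44 genes, chosen by name as classical parts or regulators of these structures, without cadherins. Earlier results of these data were known when it was chosen. A probe set counted for a gene if that gene was the only symbol in the platform annotation, and 43 of the 44 genes had such a probe set, out of 18244 genes measured. F11R had none. The study held 2 arrays of total RNA. The first was of the parental cells, labelled control, and the other of a clone in which UGT8 was stably knocked down. UGT8 encodes the ceramide galactosyltransferase, which makes galactosylceramide. Per the labels both groups were grown in DMEM with 5.6 mmol/L glucose and harvested 48 h after passage, and the labels name no further agent. The sources used here name neither the knockdown reagent nor a vector control. A clone was set against its parental line, so the knockdown and clonal differences cannot be told apart.

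With a single array in each group, differences have no replicate check and no test was run. Every value describes this pair of arrays. Levels are log2 values made by RMA, given for the control array first, and a difference is the knockdown level minus the control level. Each gene is represented by its brightest probe set, the one whose mean over the arrays is highest. The floor on that mean is the median over all non-control probe sets (log2 6.64). Past it lay 10439 genes, among them 31 of the 43 measured members. Fewer cells expressing a gene and less RNA per cell cannot be told apart in such bulk RNA.

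Epithelial cells are sealed to each other by tight junctions, in which claudins and occludin span the membrane and ZO proteins and cingulin link them to the cytoskeleton. Desmosomes fasten the keratin filaments of neighbouring cells together, and the Crumbs, PAR and Scribble complexes set the apical and basolateral sides of the cell. Carcinoma cells of mesenchymal character often keep a part of this program, and the transcriptional repressors ZEB1, ZEB2 and SNAI1 are known to hold many of its genes down.

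The targeted gene UGT8 was lower on the knockdown array in all 3 of its probe sets. The brightest went from 8.95 to 6.61, just below the floor, which left 19.7% of the control signal. The others, below the floor on mean level, left 31.2% and 20.7%. The cell line was checked on its markers. VIM, CD44, AXL and CAV1 were expected high, and their brightest probe sets were past the floor on both arrays. ESR1, PGR, ERBB2, GATA3 and FOXA1 were expected low, which was met in part. All 5 probe sets of ESR1 and all 4 of PGR were below the floor. The brightest probe sets of ERBB2 (8.56 and 8.73), GATA3 (8.73 and 8.51) and, narrowly, FOXA1 (6.65 and 6.71) were past it. The other FOXA1 probe set was below the floor (4.79 and 4.96). Of the markers of other cells, PTPRC, CDH5 and KRT1 were below the floor on both arrays. KRT10 (10.56 and 10.61) and PECAM1 (8.46 and 7.37) were past it. ADIPOQ lay just past it (6.93 and 6.79) in the brightest of its 4 probe sets, and its other probe sets were below it. The 3' minus 5' difference of ACTB, a reading of RNA integrity, was 0.49 in control and 0.90 in knockdown cells, and that of GAPDH was 0.18 and 0.19. Control RNAs added at hybridisation differed between the arrays by a median of 0.51 (knockdown minus control) and poly-A control RNAs by 0.075, and the part of these readings in the results was not tested. Directions below are on the deposited scale. On a scale centred on the hybridisation controls all differences are lowered by 0.51, the median of all genes past the floor moves from 0.029 to -0.48, and EPCAM and AP1M2 are the 2 of the 31 members past the floor that stay above 0.

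On the deposited scale, the median of the epithelial genes and their share past 1.5-fold lay close to those of all genes. ELF3 and LLGL2 were the 2 members past the floor that were at least 1.5-fold lower, where 6.74% of all genes past the floor were. EPCAM and AP1M2 were the 2 members at least 1.5-fold higher, where 4.96% of all genes were. The other 27 of 31 (87.1%) lay within 1.5-fold, against 88.3% of all genes past the floor, so the share of members past this threshold was near the background. Centred on the poly-A controls or on the hybridisation controls, EPCAM and AP1M2 no longer reached 1.5-fold. The members lower by 1.5-fold then numbered 4 with the poly-A controls, SPINT1 and PARD6B being the added ones, against 8.68% of all genes, and 14 with the hybridisation controls, against 37.1%. None of the 31 reached 2-fold in either direction, where 2.28% of all genes past the floor did. The median difference of the 31 members was -0.052 and that of all genes 0.029. Of the members 14 were above 0 and 17 (54.8%) below, where 45.8% of all genes past the floor were below 0.

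Among smaller differences more members were lower than higher, by a margin that depended on the probe sets used. By at least 0.32 on the log2 scale, 9 of 31 members (29.0%) were lower, against 16.1% of all genes past the floor. These were ELF3, LLGL2, SPINT1, PARD6B, CLDN4, CLDN12, JUP, KRT19 and PRKCZ. By the same size 3 members (9.68%), AP1M2, EPCAM and PKP3, were higher, against 18.0% of all genes. With the mean over every probe set of each gene CLDN12, PARD6B and PRKCZ no longer reached this size, which left 6 lower (19.4%, against 13.3% of all genes) and, without PKP3, 2 higher (6.45%, against 15.8%). Without cross-hybridising probe sets 24 members remained, of which 5 were lower (20.8%, against 16.6%) and 3 higher (12.5%, against 18.5%). The lower quartile of the members was -0.38 and that of all genes -0.19, and the upper quartiles were 0.17 and 0.24. The sign of the median depended on the choice of probe set, since it was 0.036 with the mean over every probe set of each gene.

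**Figure D1:**
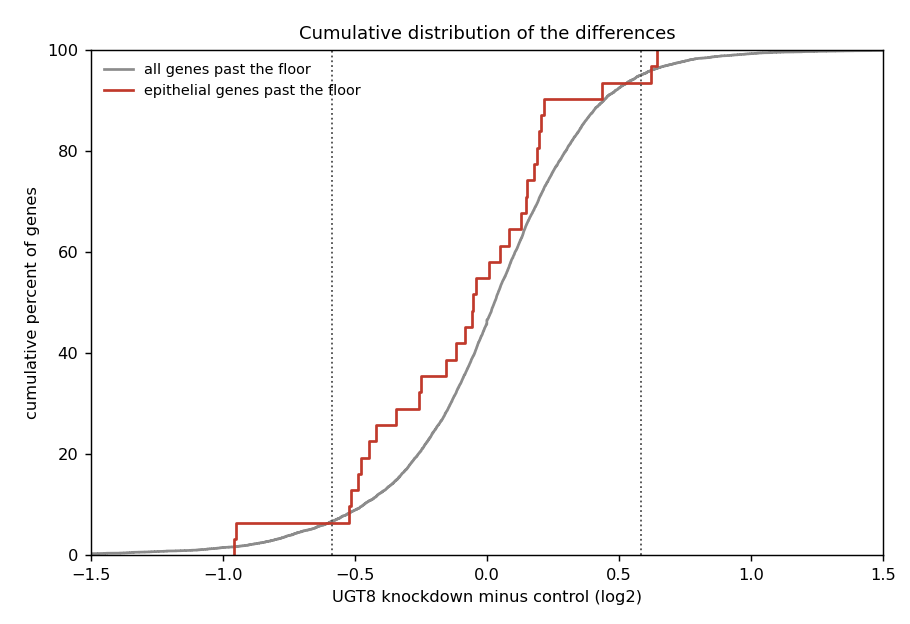
The cumulative percent of genes (vertical axis) is plotted against the difference of UGT8 knockdown minus control in log2 (horizontal axis, shown from -1.5 to 1.5), in red for the 31 epithelial genes past the floor and in grey for all 10439 genes past it, with dotted lines at 1.5-fold. The red line runs left of the grey one at the lower quartile (-0.38 against -0.19) and at the upper one (0.17 against 0.24), and the lines lie close together at both dotted lines.

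**Figure D2:**
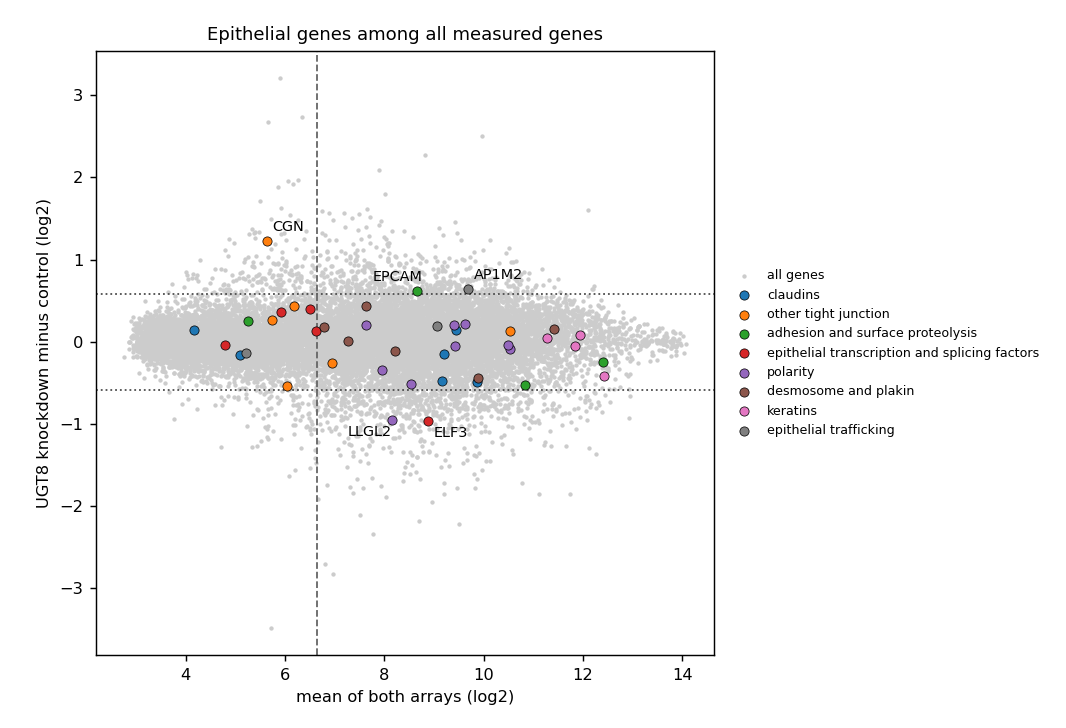
Each point is a gene, with its mean over both arrays in log2 (horizontal axis) against its difference in log2 (vertical axis), in grey for all 18244 genes and in colour for the 43 epithelial genes by role, with a dashed line at the floor and dotted lines at 1.5-fold. Beyond the dotted lines lie 5 members, ELF3 and LLGL2 below, EPCAM and AP1M2 above, and CGN above and left of the floor.

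Promoters of members are shown because ZEB1 and ZEB2, which bind the E-box CACCTG, were themselves lower on the knockdown array. ZEB1 went from 10.38 to 9.60 (-0.77), and its 7 probe sets were all lower, from -0.85 to -0.46. ZEB2 went from 7.94 to 7.08 (-0.86). SNAI1 (7.80 and 7.70) and SNAI2 (9.55 and 9.48), which bind the same letters, differed little, and TWIST1 was below the floor on both arrays (3.25 and 3.41). RefSeq's promoter table for GRCh38.p14 matched 24 of the 44 genes by symbol, with 40 start sites. The 250 bases before each start were searched for CACCTG on both strands, which reads CAGGTG where it lies on the other strand. No other motif was searched, and matches on the 2 strands cannot overlap. The letters were found in 15 of 40 windows (37.5%), against 17.5% of all 35116 windows of that length in the table. By gene, in at least 1 of its windows, they were found for 13 of 24 members (54.2%) and for 20.6% of all 27305 genes in it. More windows give a gene more chances to match, and members had 40 for 24 genes, against 35116 for 27305. The table's genes are also not limited to the 18244 measured on the arrays, and windows were not matched for base composition or kind of gene. The list was drawn from the program these repressors are known to hold down, with CRB3 a known target. The motif was chosen after the levels were seen. The higher share among members is thus partly built in and is not read as a result. At least 3 matches were held by 4 member windows and by 0.464% of all windows. Windows of 1 gene can overlap. A match is a description of the letters and not a measured binding site, and the part of ZEB1 and ZEB2 in the members' levels was not tested.

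Printed 5' to 3' on the strand of the gene, with the matches in capitals, are the 4 windows with at least 3 matches, followed by those of ELF3 and CGN, the most negative and the most positive difference of the list. All are from RefSeq, build GRCh38.p14, and each ends at the base before the start.
CRB3 (chr19:6464021-6464270, strand +): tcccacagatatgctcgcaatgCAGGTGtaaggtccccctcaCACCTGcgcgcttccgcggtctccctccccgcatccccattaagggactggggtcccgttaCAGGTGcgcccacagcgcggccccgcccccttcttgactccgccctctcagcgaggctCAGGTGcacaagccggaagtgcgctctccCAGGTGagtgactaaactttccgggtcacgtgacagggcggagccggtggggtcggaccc
CLDN7 (chr17:7262479-7262728, strand -): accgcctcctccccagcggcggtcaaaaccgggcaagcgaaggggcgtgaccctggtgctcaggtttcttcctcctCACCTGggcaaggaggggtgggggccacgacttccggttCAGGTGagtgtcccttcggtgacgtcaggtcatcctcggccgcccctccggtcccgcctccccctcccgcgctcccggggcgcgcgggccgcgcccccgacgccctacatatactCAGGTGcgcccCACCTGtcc
PRKCZ (chr1:2050161-2050410, strand +): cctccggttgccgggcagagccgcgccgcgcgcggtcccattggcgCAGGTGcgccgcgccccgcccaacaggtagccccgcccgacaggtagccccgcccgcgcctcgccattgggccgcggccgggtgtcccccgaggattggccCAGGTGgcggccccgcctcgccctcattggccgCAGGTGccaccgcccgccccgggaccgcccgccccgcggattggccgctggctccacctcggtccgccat
AP1M2 (chr19:10587313-10587562, strand -): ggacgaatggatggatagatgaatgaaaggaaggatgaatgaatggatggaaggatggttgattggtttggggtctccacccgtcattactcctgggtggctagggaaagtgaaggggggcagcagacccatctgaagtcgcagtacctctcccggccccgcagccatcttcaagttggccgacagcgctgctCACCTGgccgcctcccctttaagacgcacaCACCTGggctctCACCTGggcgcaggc
ELF3 (chr1:202010337-202010586, strand +): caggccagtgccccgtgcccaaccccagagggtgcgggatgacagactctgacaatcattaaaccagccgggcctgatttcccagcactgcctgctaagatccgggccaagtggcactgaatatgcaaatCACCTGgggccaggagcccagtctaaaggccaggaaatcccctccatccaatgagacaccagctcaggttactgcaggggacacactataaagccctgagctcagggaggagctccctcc
CGN (chr1:151511137-151511386, strand +): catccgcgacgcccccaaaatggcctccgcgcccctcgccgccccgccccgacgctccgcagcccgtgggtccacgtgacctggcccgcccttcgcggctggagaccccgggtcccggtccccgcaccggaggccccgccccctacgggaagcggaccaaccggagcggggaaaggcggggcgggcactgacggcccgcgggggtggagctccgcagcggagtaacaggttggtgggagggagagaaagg

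The windows printed were chosen by their matches or by the gene's difference, so no relation of matches to differences is read from them. CRB3, whose window held 5, differed by 0.20, CLDN7 with 4 by 0.15, and AP1M2 with 3 by 0.64. PRKCZ, with 3 at the start printed and 1 at another of its 4 starts, differed by -0.34. ELF3, with 1, was the lowest member, and CGN, the highest, had none in these 250 bases. Of the genes not printed, DSP held 2 matches and differed by 0.15, and JUP held 2 and differed by -0.45. A window with 1 match was also found for OCLN (-0.26), TJP1 (0.13), SPINT1 (-0.52) and DLG1 (-0.083), and for TJP3 and RAB25, which lay below the floor.

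Of the 6 claudins, which form the sealing strands and pores of tight junctions, 4 lay past the floor and none differed by 1.5-fold. CLDN4 read 10.11 in control and 9.63 in knockdown cells (-0.49), and its 3 probe sets were all lower, from -0.49 to -0.27. CLDN12, a divergent claudin, read 9.40 and 8.92 (-0.48), with its other probe set at -0.16. Among the 4 listed claudins past the floor these were the larger differences, both downward. CLDN1, a barrier claudin, read 9.28 and 9.12 (-0.15), and its 4 probe sets spanned -0.18 to 0.041. CLDN7 read 9.37 and 9.52 (0.15). CLDN3 (5.18 and 5.02) and CLDN11, the claudin of myelin and Sertoli cells (4.09 and 4.24), lay below the floor on both arrays. The median of the 4 claudins past the floor was -0.32, with 3 of 4 below 0, against 45.8% of all genes past the floor.

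The other tight junction genes were mostly dim, and they held the difference of largest size in the list. CGN encodes cingulin, which links the junction plaque to actomyosin and microtubules. It read 5.04 in control and 6.26 in knockdown cells, 1.22 apart or 2.33-fold higher. Both readings were below the floor, so it did not enter the counts above. The 3 probe sets of CGN were all higher, by 0.41, 0.94 and 1.22. Of the 7805 genes below the floor, 0.525% were at least 2-fold higher. The paralogue CGNL1 (paracingulin), also below the floor, read 5.97 and 6.41 (0.43), with its other probe sets at -0.025 and 0.14. TJP1, which encodes the scaffold ZO-1, read 10.46 and 10.59 (0.13), with the other probe set at 0.14. Occludin (OCLN) read 7.07 and 6.81 (-0.26). OCLN and TJP1, the 2 genes of this group past the floor, were thus on opposite sides of 0 by small amounts. Tricellulin (MARVELD2), which seals the points where 3 cells meet, read 5.60 and 5.86 (0.27), below the floor. TJP3, encoding ZO-3, was below the floor too and read 6.32 and 5.77 (-0.54).

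**Figure D3:**
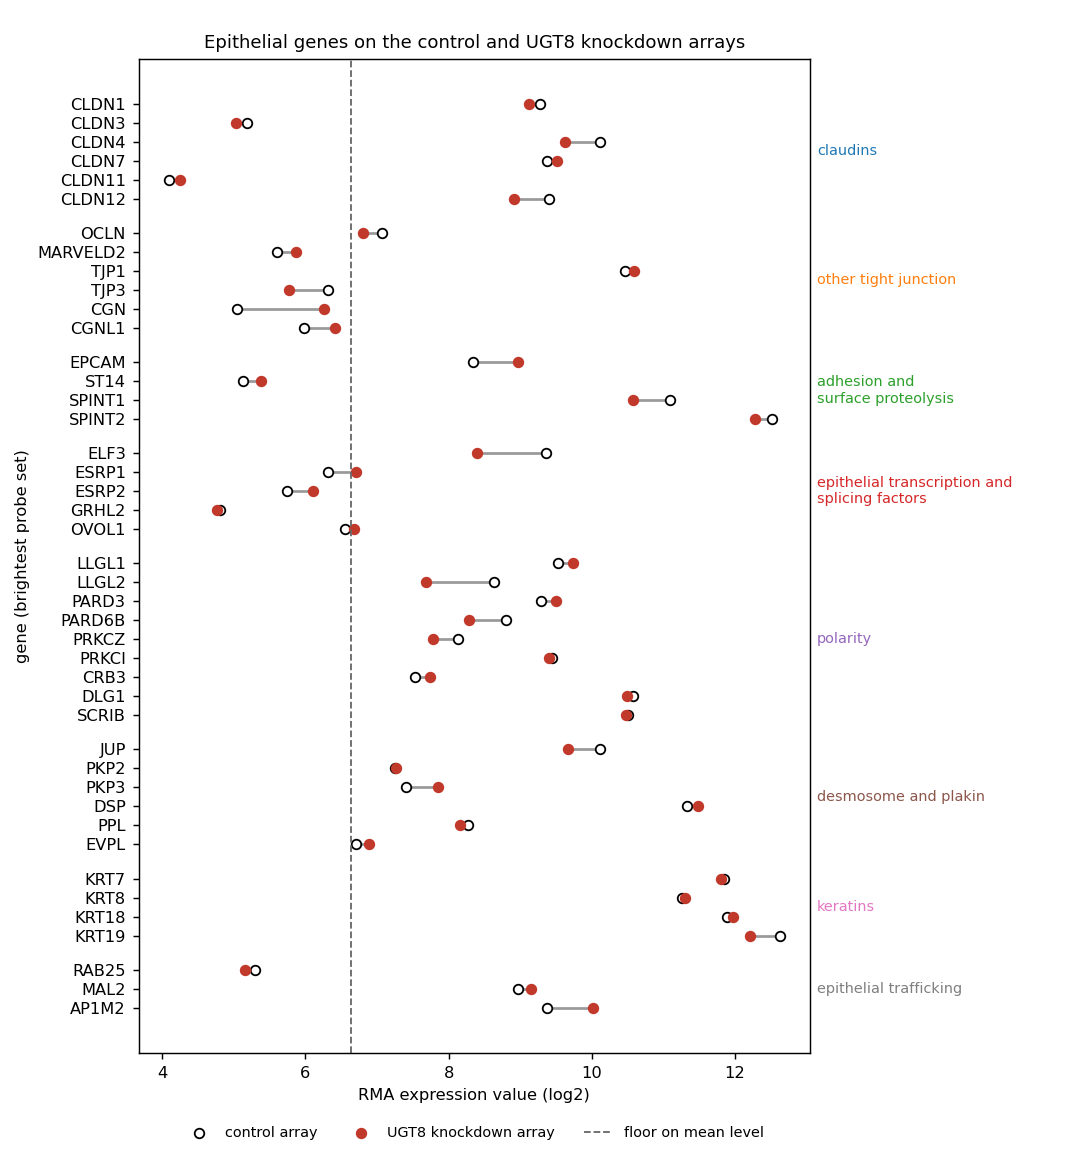
The RMA value in log2 of the brightest probe set (horizontal axis) is shown for each of the 43 measured genes (vertical axis, grouped by role), as an open circle for the control array and a red circle for the knockdown array, 1 array each, with a dashed line at the floor of 6.64. CGN has the longest step to the right (5.04 to 6.26), and ELF3 (9.36 to 8.40) and LLGL2 (8.63 to 7.68) the longest steps to the left.

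Among the surface adhesion and protease genes, EPCAM and the protease inhibitors differed in opposite directions. EPCAM, the epithelial cell adhesion molecule, which binds CLDN7 protein, read 8.34 in control and 8.97 in knockdown cells (0.62, 1.54-fold higher). Its 3 probe sets were all higher, between 0.62 and 0.72. SPINT1 encodes HAI-1, the Kunitz-type inhibitor of matriptase and hepsin. It read 11.10 and 10.57 (-0.52), and all 5 of its probe sets were lower, from -0.85 to -0.36, 2 of them by more than 1.5-fold. The related inhibitor gene SPINT2 read 12.53 and 12.28 (-0.25), with the other probe set at -0.35. Matriptase itself (ST14), the membrane protease that both inhibit, was below the floor on both arrays at 5.13 and 5.38.

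The epithelial transcription and splicing factors were mostly below the floor, with ELF3 as the exception. ELF3, an ETS factor of epithelial differentiation, read 9.36 in control and 8.40 in knockdown cells (-0.96), which left 51.4% of the control signal. Its second probe set past the floor gave -0.96 and the dim one -0.64, and all 3 carry the name ending that marks possible cross-hybridisation. ESRP1, a splicing factor that maintains epithelial isoforms, read 6.31 and 6.71 (0.40), crossing the floor on the knockdown array, and its other probe set gave 0.28. The paralogue ESRP2 read 5.74 and 6.10 (0.36). The 3 ESRP probe sets were thus all above 0, but within 1.5-fold and below the floor on mean level. OVOL1, a zinc finger repressor of mesenchymal genes, read 6.55 and 6.68 (0.13), with probe sets on both sides of 0. GRHL2, a grainyhead factor that activates junction genes, read 4.81 and 4.77, and all 5 of its probe sets were below the floor, with differences between -0.079 and 0.087.

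All 9 polarity genes lay past the floor, and LLGL2 alone among them differed by 1.5-fold. LLGL2, a homologue of the fly tumour suppressor lethal giant larvae on the basolateral side, read 8.63 in control and 7.68 in knockdown cells (-0.95, 51.8% of control). Its second probe set went from 6.99 to 6.73 (-0.26), so the probe sets differed in size but not in sign, with a mean of -0.60. The paralogue LLGL1 read 9.52 and 9.74 (0.22), with a dim second probe set at -0.077. SCRIB and DLG1, also of the Scribble complex, differed by less. SCRIB read 10.51 and 10.47 (-0.040). DLG1 read 10.57 and 10.49 (-0.083), and its 9 probe sets spanned -0.083 to 0.31.

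In the PAR and Crumbs complexes, which mark the apical side, the differences were within 1.5-fold and mixed in sign. PARD6B, the adaptor PAR6-beta, read 8.80 and 8.28 (-0.52), but its dim probe set went the other way, from 5.33 to 5.77 (0.44). The atypical protein kinase C gene PRKCZ read 8.13 and 7.78 (-0.34), with all 3 probe sets below 0. Its paralogue PRKCI read 9.45 and 9.40 (-0.052). The kinases thus differed in size, and PRKCI had probe sets on both sides of 0. PARD3, the scaffold of the PAR complex, read 9.29 and 9.50 (0.21), with 2 of its 4 probe sets below 0. CRB3, the apical membrane protein Crumbs3 and a known target of ZEB1 and SNAI1, read 7.54 and 7.73 (0.20), with all 3 probe sets above 0. The median of the 9 polarity genes was -0.052, with 3 above 0 and 6 (66.7%) below, against 45.8% of all genes past the floor.

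**Figure D4:**
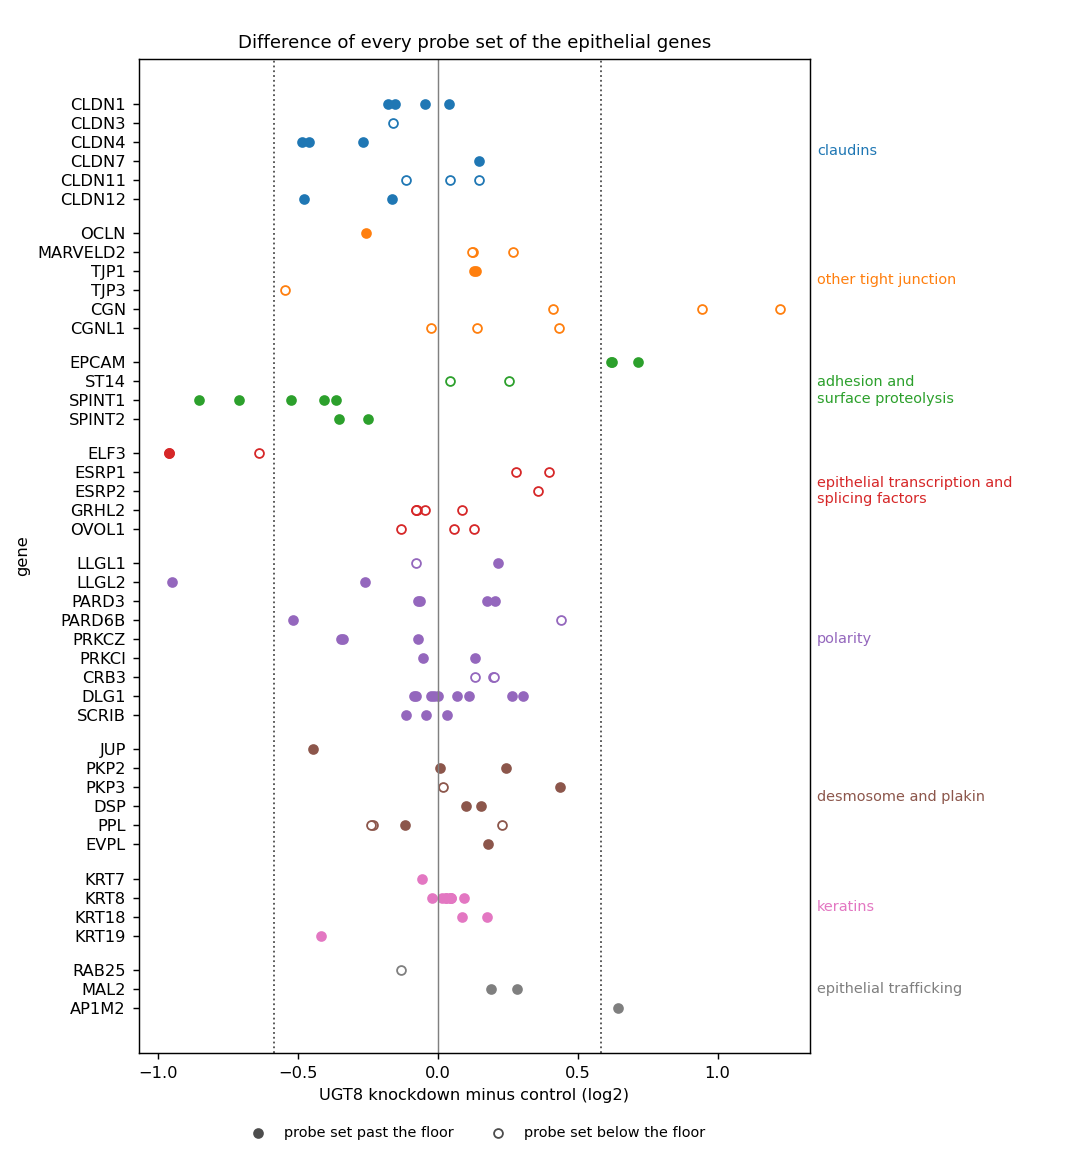
The difference of UGT8 knockdown minus control in log2 (horizontal axis) is shown for all 111 probe sets of the 43 measured genes (vertical axis, grouped by role), filled where the probe set lies past the floor and open where it lies below, with dotted lines at 1.5-fold. The probe sets of EPCAM (0.62 to 0.72) and SPINT1 (-0.85 to -0.36) lie on 1 side of 0 and those of KRT8 (-0.022 to 0.094) close together, whereas those of PARD6B (-0.52 and 0.44) lie on both sides.

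The 6 desmosome and plakin genes were past the floor and within 1.5-fold. JUP encodes plakoglobin, which is shared by desmosomes and adherens junctions. It was the lowest of the group and read 10.12 and 9.67 (-0.45) in its single probe set. PKP3, a desmosomal plakophilin, was the highest, at 7.41 and 7.85 (0.44), with a dim second probe set at 0.018. The plakin and filament linkers lay closer to 0. Plakophilin 2 (PKP2) read 7.26 and 7.26 (0.008), with the other probe set at 0.24. Desmoplakin (DSP), which ties keratin filaments to the desmosome, read 11.33 and 11.49 (0.15), and its other probe set gave 0.10. The cytolinker gene PPL read 8.27 and 8.16 (-0.12). EVPL, its partner in the cornified envelope, read 6.70 and 6.88 (0.18). The group's median was 0.080, with 4 of 6 above 0 and 2 (33.3%) below, against 45.8% of all genes past the floor.

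The keratins of simple epithelia were nearly level between the arrays, except KRT19. KRT8 read 11.25 and 11.30 (0.048), and its 8 probe sets spanned -0.022 to 0.094. Its partner KRT18 read 11.90 and 11.98 (0.085), with the other probe set at 0.17. All probe sets of both are marked for possible cross-hybridisation, and many processed pseudogenes of both keratins exist, so these readings are uncertain as to the copy. KRT7 read 11.86 and 11.80 (-0.055). KRT19, the smallest keratin of this class, read 12.63 and 12.21 (-0.42), or 1.34-fold lower, in its single probe set.

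Of the genes of polarised membrane traffic, AP1M2 had the highest difference of the 31 members past the floor. It encodes the medium subunit mu-1B of the epithelial clathrin adaptor AP-1B, which sorts proteins to the basolateral membrane. Its single probe set read 9.37 in control and 10.01 in knockdown cells (0.64, 1.56-fold higher). MAL2, a raft protein of transcytosis, read 8.96 and 9.15 (0.19), with the other probe set at 0.28. RAB25, a small GTPase of apical recycling, read 5.29 and 5.16, below the floor on both arrays.

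Members that are next to each other among the protein-coding genes of RefSeq's table were set side by side. KRT8 and KRT18 differed by 0.048 and 0.085. OCLN (-0.26) and MARVELD2 (0.27, below the floor) lay on opposite sides of 0. CLDN4 (-0.49) and CLDN3 (-0.16, below the floor) were both below 0.

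A further list held 85 related epithelial genes that are not members, such as other claudins, desmosomal cadherins, nectins, keratins and polarity adaptors. Of these, 74 were measured and 40 lay past the floor, with a median of -0.087, 13 above 0 and 27 (67.5%) below, where 45.8% of all genes past the floor were below 0. At least 1.5-fold higher was CLDN23, which read 6.34 and 6.94 (0.61) and lay just past the floor on mean level. At least 1.5-fold lower were MPDZ and EHF. MPDZ, a multi-PDZ scaffold of tight junctions, read 9.09 and 8.44 (-0.64), with its 4 probe sets between -0.64 and -0.45. EHF, an epithelial ETS factor of the same subfamily as ELF3, read 11.32 and 10.60 (-0.72), and all 8 of its probe sets were lower, from -1.16 to -0.47. The remaining 37 related genes past the floor (92.5%) lay within 1.5-fold, against 88.3% of all genes, so calls were no more frequent among them than in the background. Of the epithelial ETS factors on both lists, ELF3 and EHF were thus lower on the knockdown array, and ELF5 was below the floor.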

How the data were processed

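Total RNA (6 ug per sample, extracted with Trizol per the labels) was labelled with biotin by the Affymetrix protocol and measured on 2 arrays. The deposited values are log2 values made with RMA by the authors, per the submitters' processing notes. RMA corrects background, normalizes between arrays and summarises each probe set, so a shift common to most transcripts is removed. The sources used here give no software version or genome build. The table held 49495 probe sets, of which 102 were controls and 45278 had 1 gene symbol. Symbols were updated through gene IDs to those of RefSeq (GRCh38.p14), where 18201 of 18244 were found. For the 44 genes this changed no symbol.

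Groups came from the genotype labels. Differences were computed with pandas 2.3.3 in Python 3.11.15. No test was run, because each group holds 1 array, and this number limits the precision. The counting procedure was tested on simulated differences. The members and lists were chosen with earlier results of these data known, and the promoter motif after the levels were seen. All members were described, and related genes were named if past the floor and at least 1.5-fold different. Alternatives were the fold threshold, the floor, the probe set rule, cross-hybridising probe sets (_s_at and _x_at) and the centring, including a loess curve (statsmodels 0.14.6, fraction 0.3).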

Additional observations from a re-analysis of the deposited data

How the results depend on the processing

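With 1 array per group no replicate could be left out. No paired analysis was possible because each group holds 1 array and the replicate number only names it. Counts of members past the floor were 2 higher and 2 lower at 1.5-fold, with a median of -0.052. At 2-fold they were 0 higher and 0 lower, and at a log2 difference of 0.32 they were 3 higher and 9 lower. A floor at the 75th percentile left 22 members and 1 lower, since LLGL2 was below it. Leaving out cross-hybridising probe sets left 24 members and 1 lower, since ELF3 has no other probe set. Centred on the poly-A controls, 0 were higher and 4 lower (SPINT1, ELF3, LLGL2 and PARD6B). Centred on the hybridisation controls, 0 were higher and 14 lower with a median of -0.564, where 0.479% of all genes past the floor were higher and 37.1% lower. With the mean over a gene's probe sets, either all of them or those past the floor, the median was 0.036 and LLGL2 differed by -0.60. With no floor, or a floor at the 25th percentile, 3 were higher, as CGN entered, and the median was 0.008. Centred on the median or by loess, the counts stayed at 2 and 2. At the log2 difference of 0.32, leaving out cross-hybridising probe sets left 5 lower, in part because CLDN4, ELF3 and PRKCZ have no other probe set. The probe set alternatives at this size were added after the data were seen. A change of floor leaves a gene's value as it is, and centring on the median or on control probe sets shifts every gene alike. Under the other alternatives (probe set choice and loess) 117 values of single genes were compared. Of these, 97 moved by less than the median SD between probe sets of 1 gene (0.0832) and 20 by more. This SD is no replicate error. Many of the 97 could hardly move, so their share does not measure robustness. All loess values moved by less than this SD, and averaging leaves a gene with 1 probe set unchanged. Leaving out cross-hybridising probe sets changes a gene only if its brightest one is marked. ELF3, LLGL2, EPCAM and AP1M2, past 1.5-fold, kept their sign where compared. PRKCI (-0.052 to 0.041) and DLG1 (-0.083 to 0.061) changed sign with the mean over probe sets, and PKP2 (0.008 to -0.007) by loess.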
